A study of Mus musculus with 6 samples.

Results

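The S100 genes code for small calcium-binding proteins, and 10 of them were followed here across injured and sham-operated nervous tissue of the mouse: S100a8, S100a9, S100a1, S100a4, S100a6, S100a10, S100a11, S100a13, S100a16 and S100b. They were taken by gene symbol, 1 probe each, from 16593 named genes, and were chosen by symbol with the signals and folds of these same arrays already known. Their levels and folds are therefore a description. The tissues came from adult female C57Bl6 mice after unilateral surgery on the sciatic nerve at mid-thigh, and 6 Illumina MouseRef-8 v2.0 arrays were each hybridised with RNA pooled from 6 animals. Sciatic nerve was given by 3 arrays (sham-operated, injured at day 1 and injured at day 5), L4/5 dorsal root ganglia (DRG) by 2 (sham and injured side, the latter taken at day 5), and day 5 spinal cord by 1. The study's methods give the injury as a transection with the distal and proximal segments pooled, and call the controls sham-operated, whereas the array labels call them normal right-side nerve and normal DRG. No control cord array was used here, so the cord could be set only against other tissues. With 1 array a condition no difference could be tested between animals.

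S100 proteins form dimers that expose a binding surface when calcium binds, and most act inside the cell on the cytoskeleton, annexins and enzymes. Some are also released and act on receptors such as TLR4 and RAGE. S100A8 and S100A9 pair as calprotectin, an abundant cytoplasmic protein of neutrophils and monocytes, while S100B is a classical marker of Schwann cells and astrocytes, and S100A4, S100A6, S100A10 and S100A11 are found in many stromal, epithelial and neural cells. In a cut nerve, neutrophils enter early, macrophages follow, and Schwann cells lose their myelinating state.

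By the RefSeq annotation (GRCm38.p6), 9 members lie on chromosome 3 in the order S100a1, S100a13, S100a16, S100a4, S100a6, S100a8, S100a9, S100a11 and S100a10, and S100b lies on chromosome 10. RefSeq promoter windows of 300 bases, from 250 bases before to 50 bases after the annotated start, were matched for 9 of the 10 members, and S100a10 is named only. Below are the windows of the adjacent pair S100a8 and S100a9, whose signals moved together, of S100a11, the member with the highest fold in the injured-side DRG, and of S100b, the member that was lower in the injured nerve. Each is written 5′ to 3′ on the strand of its gene, and capitals mark the letters TATAAA or TGANTCA (the AP-1 motif) on either strand.
S100a8, chr3:90668821-90669120, plus strand: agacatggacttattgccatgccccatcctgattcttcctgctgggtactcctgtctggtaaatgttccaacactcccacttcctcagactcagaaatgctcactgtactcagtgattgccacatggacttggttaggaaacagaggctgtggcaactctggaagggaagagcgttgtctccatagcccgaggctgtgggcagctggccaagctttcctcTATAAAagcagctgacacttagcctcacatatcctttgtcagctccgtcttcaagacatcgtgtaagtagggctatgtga
S100a9, chr3:90695672-90695971, minus strand: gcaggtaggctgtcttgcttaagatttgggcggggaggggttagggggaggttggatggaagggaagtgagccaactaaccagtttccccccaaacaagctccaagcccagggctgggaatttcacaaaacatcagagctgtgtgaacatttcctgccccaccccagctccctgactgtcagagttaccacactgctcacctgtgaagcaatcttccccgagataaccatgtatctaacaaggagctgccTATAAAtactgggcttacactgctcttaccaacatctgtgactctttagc
S100a11, chr3:93520246-93520545, plus strand: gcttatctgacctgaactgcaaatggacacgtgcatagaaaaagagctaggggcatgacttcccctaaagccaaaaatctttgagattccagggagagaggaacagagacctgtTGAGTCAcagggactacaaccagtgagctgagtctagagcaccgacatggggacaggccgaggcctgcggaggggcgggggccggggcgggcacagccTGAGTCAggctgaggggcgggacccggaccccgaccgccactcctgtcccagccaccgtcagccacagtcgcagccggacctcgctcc
S100b, chr10:76253586-76253885, plus strand: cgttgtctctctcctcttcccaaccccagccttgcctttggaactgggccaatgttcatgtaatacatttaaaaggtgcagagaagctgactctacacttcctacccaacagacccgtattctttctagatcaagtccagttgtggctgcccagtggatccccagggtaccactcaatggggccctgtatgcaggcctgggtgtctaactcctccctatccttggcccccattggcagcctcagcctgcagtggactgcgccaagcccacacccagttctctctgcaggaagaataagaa
TATAAA was found in the windows of 3 members, S100a8 (first base at position -30 from the annotated start), S100a9 (position 0) and S100a4 (position -31), and in 13.6% of all 32851 mouse windows. TGANTCA was found at positions -136 and -38 of the S100a11 window and at -192 of 1 of the S100a16 windows, and in 7.81% of all windows. The C/EBP motif, searched as TTNNGNAA, matched in S100a8 and S100a9 among the members and in 40.7% of all windows. The GC box GGGCGG matched in S100a9, S100a11 and S100a16 and in 35.7% of all windows. All 4 motifs were searched on both strands, TGANTCA and TTNNGNAA can share letters, and no member window held both of these. Each match is a match of letters and says nothing of a bound factor. The windows of S100a1 and S100a13, which are read in opposite directions, share 204 bases.

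Signals are the mean bead intensities of a probe, multiplied so that all arrays have 1 median (factors 0.951 to 1.07). A probe counted as detected at a detection p under 0.05, and undetected signals were raised to the lowest detected signal of their array, the floor (117 to 124), before folds were taken. Folds carry a 95% interval from the bead standard errors, which covers technical error on 1 array and no variation between animals. Of the 60 pairs of member and array, 58 were detected, with S100a9 in the sham nerve and S100a4 in the cord as the exceptions. Member probes had 23 to 56 beads and bead standard errors of 3.92 to 9.86% of the signal. The arrays detected 50.9 to 54.5% of probes. All 4 defining sensory neuron genes (Prph, Isl1, Trpv1 and Scn10a) were detected on both DRG arrays, and the cord detected all 13 measured central glia genes. The day 1 nerve and the sham DRG detected 12 and 13 of those central glia genes as well, against 5 or 6 on the other peripheral arrays, so these 2 arrays stand apart from their tissue labels in this respect, and with 1 array a condition no value without them can be had. Over the 6 arrays the median ratio of highest to lowest signal was 6.41 for the 10 members and 1.85 for 11703 genes detected on at least 1 array, a difference that the choice of members fixes in part.

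**Figure D1:**
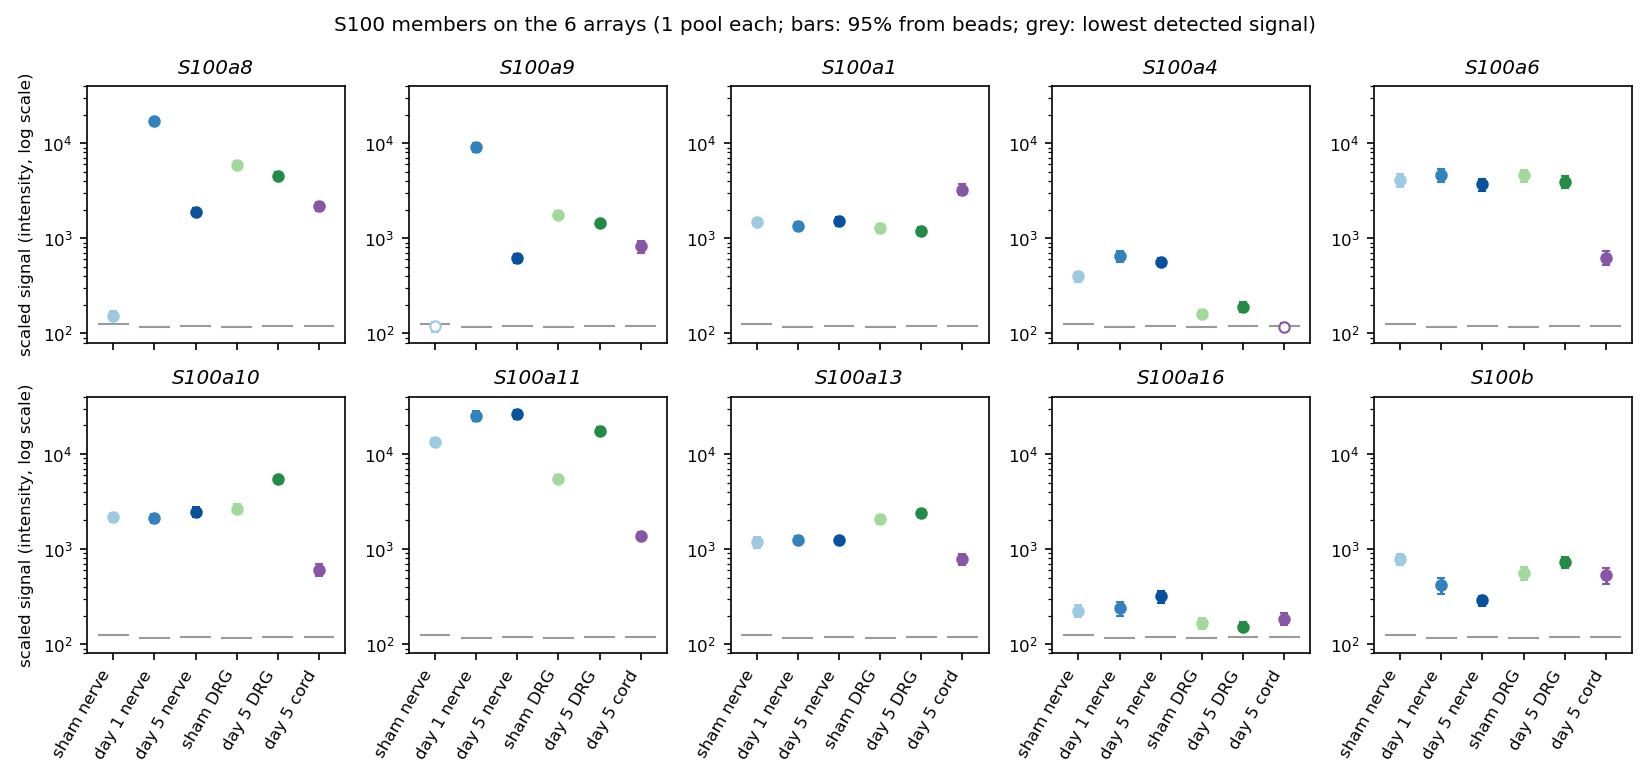
Scaled signal intensity (log axis) of the 10 S100 members on the 6 arrays, 1 RNA pool each, with bars of 95% from beads, open points where the probe was not detected and a grey line at the floor of each array. S100a8 runs from 152 in the sham nerve to 17039 in the day 1 nerve, S100b is lowest in the day 5 nerve, and S100a11 is lowest in the cord.

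The neutrophil pair, S100a8 and S100a9, had the widest range of the members. S100a8 had a signal of 152 ± 9.26 (bead standard error) in the sham nerve, 17039 ± 668 in the day 1 nerve and 1908 ± 94.3 in the day 5 nerve, 5922 ± 271 in the sham DRG, 4549 ± 192 in the day 5 DRG and 2175 ± 113 in the cord. S100a9, its partner in calprotectin, was not detected in the sham nerve (118, detection p 0.094) and stood at 9093 ± 495 in the day 1 nerve, 614 ± 31.3 in the day 5 nerve, 1769 ± 86.4 in the sham DRG, 1438 ± 61.0 in the day 5 DRG and 823 ± 59.7 in the cord. For both genes the arrays fell in 1 order, from day 1 nerve over sham DRG, day 5 DRG, cord and day 5 nerve down to sham nerve. The neighbours in that order were apart by more than bead error except the cord and the day 5 nerve for S100a8 (1.14-fold, 0.991 to 1.31). Across the 6 arrays the log2 signals of the pair had a Pearson correlation of 0.97, a description over points that share tissues and that the day 1 and sham nerve values dominate.

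In the day 1 nerve, S100a8 was 112-fold higher than in the sham nerve (97.4 to 130) and S100a9 at least 73.4-fold higher. They were the 2 of 10 members at least 2-fold higher, and 0 were lower, where 6.54% of 10234 detected genes were higher and 3.59% lower. At day 5 the same pair was still higher than in the sham nerve, S100a8 by 12.6-fold (10.8 to 14.7) and S100a9 by at least 4.96-fold, where 6.3% of 10121 genes were at least 2-fold higher. Both comparisons use the same sham nerve array, whose S100a8 signal was only 1.22 times the floor, so the folds rest on a dim denominator. After neqc background correction they were 219-fold and 26.5-fold for S100a8. Between the injured nerves, S100a8 was 8.93-fold lower at day 5 than at day 1 (7.89 to 10.1) and S100a9 was 14.8-fold lower (12.8 to 17.1). These were the 2 members at least 2-fold lower in that comparison, with 0 higher, where 4.65% of 10406 genes were lower and 3.25% higher (7.9% either way).

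**Figure D2:**
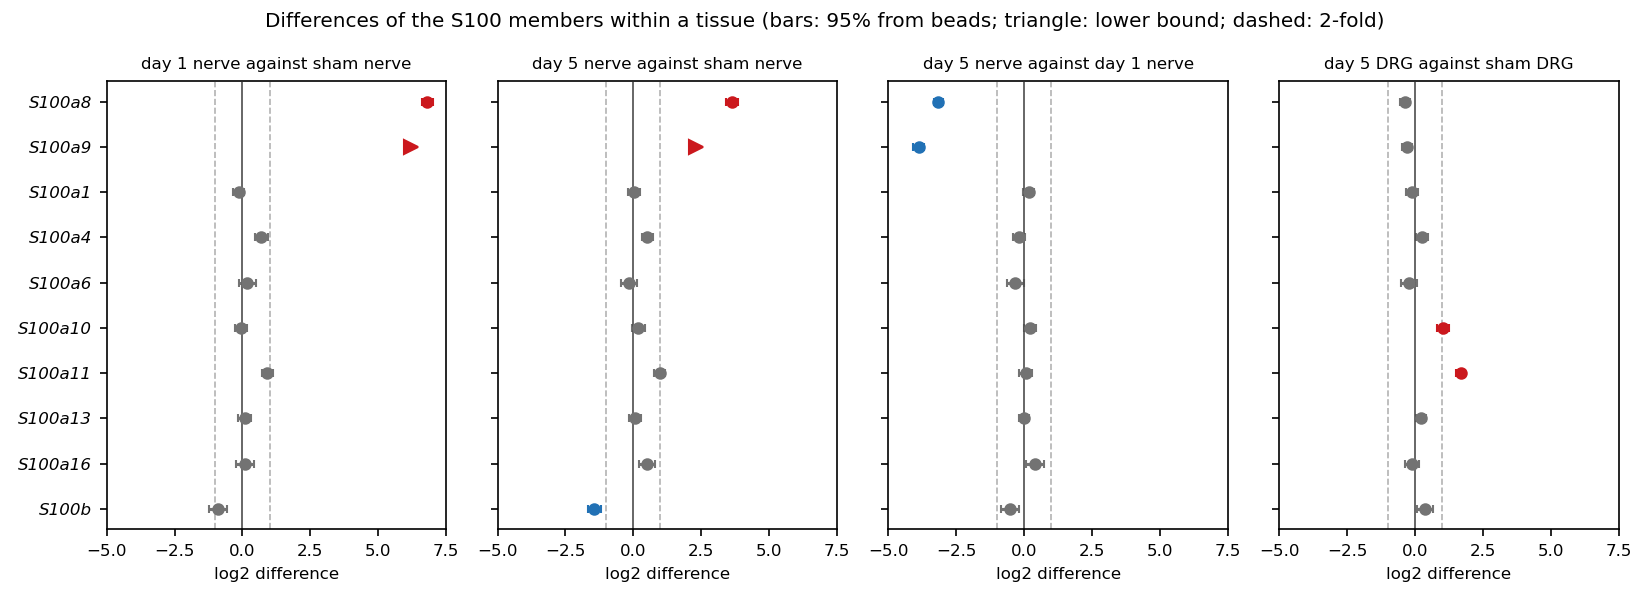
Log2 difference of each member in 4 comparisons within a tissue, with bars of 95% from beads, triangles for lower bounds, dashed lines at 2-fold and colour for members past it. S100a8 and S100a9 lie far to the right at day 1 and between 2.31 and 3.65 at day 5, whereas the other 8 members lie between -0.90 and 0.91 at day 1 and between -1.43 and 0.97 at day 5.

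Other neutrophil markers were high on the same nerve array. Of 22 measured neutrophil genes other than the pair, 15 were detected in the day 1 or the sham nerve and 12 were at least 2-fold higher at day 1 (median log2 difference 2.50, against -0.01 over all genes; 1.39 with the mean of all probes of a gene). At day 5, 6 of 12 were higher (median 0.76, which was 0.34 with the mean of all probes and 1.29 at a detection p under 0.01). Of the genes higher at day 1, Fpr2, Hdc, Slpi, Retnlg and Il1r2 are among the paper's top day 1 nerve genes from these arrays. The list therefore fixes the day 1 count in part. Of 7 measured defining neutrophil genes, the sham nerve and the day 1 nerve each detected 3. Csf3r, the receptor for granulocyte colony-stimulating factor, had signals of 135, 1150 and 308 in the sham, day 1 and day 5 nerve, an increase of 8.51-fold at day 1 (7.13 to 10.2). Cxcr2, the receptor that draws neutrophils along chemokine gradients, was detected only in the day 1 nerve of the 6 arrays, at 435. Fpr2, a formyl peptide receptor, was not detected in the sham nerve and had signals of 3794 at day 1 and 547 at day 5. From day 1 to day 5, 11 of 14 were at least 2-fold lower, while Retnlg, a resistin-like gene of granulocytes, had signals of 2202 and 2203. In a bulk sample, more cells of a type and more RNA per cell cannot be told apart, and monocytes also carry S100a8 and S100a9. Macrophage markers were at least 2-fold higher for 10 of 17 genes at day 1 and 15 of 17 at day 5. From day 1 to day 5, 8 of the 17 were at least 2-fold higher and 2, Fcgr1 and Cd14, were lower. Their part in the signals of the pair was not tested.

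S100a8 and S100a9 were also present in the DRG and the cord, with a lower fold against the sham nerve than the day 1 nerve had. The sham DRG signal was 39.0-fold that of the sham nerve for S100a8 (33.6 to 45.3) and at least 14.3-fold for S100a9, where 12% of 10397 genes were at least 2-fold higher in the DRG. With neqc these values over the same dim sham nerve signals were 77.5-fold and at least 40.0-fold. Of 22 measured neutrophil genes other than the pair, the day 1 nerve and the sham DRG each detected 14, of which 10 were detected on both arrays. Camp and Ngp, granule proteins made by immature neutrophils in bone marrow, were not detected on any of the 3 nerve arrays and had signals of 391 and 396 in the sham DRG, 279 and 325 in the day 5 DRG and 208 and 202 in the cord. Mpo, the myeloperoxidase of early granules, followed the same pattern, with 187, 160 and 153 in sham DRG, day 5 DRG and cord and no detection in nerve. Elane and Prtn3, of the same list, did not follow it. Elane was detected in the sham nerve at 128, against 144, 134 and 134 in sham DRG, day 5 DRG and cord. It was not detected in the injured nerves. Prtn3 had 165, 223 and 177 in the sham, day 1 and day 5 nerve. In sham DRG, day 5 DRG and cord it had 138, 136 and 147. Ltf, lactoferrin of later granules, had signals of 125, 189 and 123 in the nerve arrays and of 1189 in the sham DRG, 691 in the day 5 DRG and 422 in the cord. Cxcr2 was not detected in the DRG or cord, whereas Csf3r stood at 134 and Fpr2 at 219 in the sham DRG. Other granule genes were brighter in the day 1 nerve than in the sham DRG, with signals of 2367 and 656 for Lcn2 and of 1393 and 203 for Mmp9. The part of residual marrow or blood in these signals was not tested. The 4 measured red cell genes were detected on all 6 arrays, with summed signals between 44063 in the cord and 65597 in the day 1 nerve, most of it from Hba-a1. Slc4a1, the anion exchanger of red cells, was the 1 of the 4 at least 2-fold higher in the sham DRG than in the sham nerve (725 against 269, 2.70-fold, 2.33 to 3.13).

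**Figure D3:**
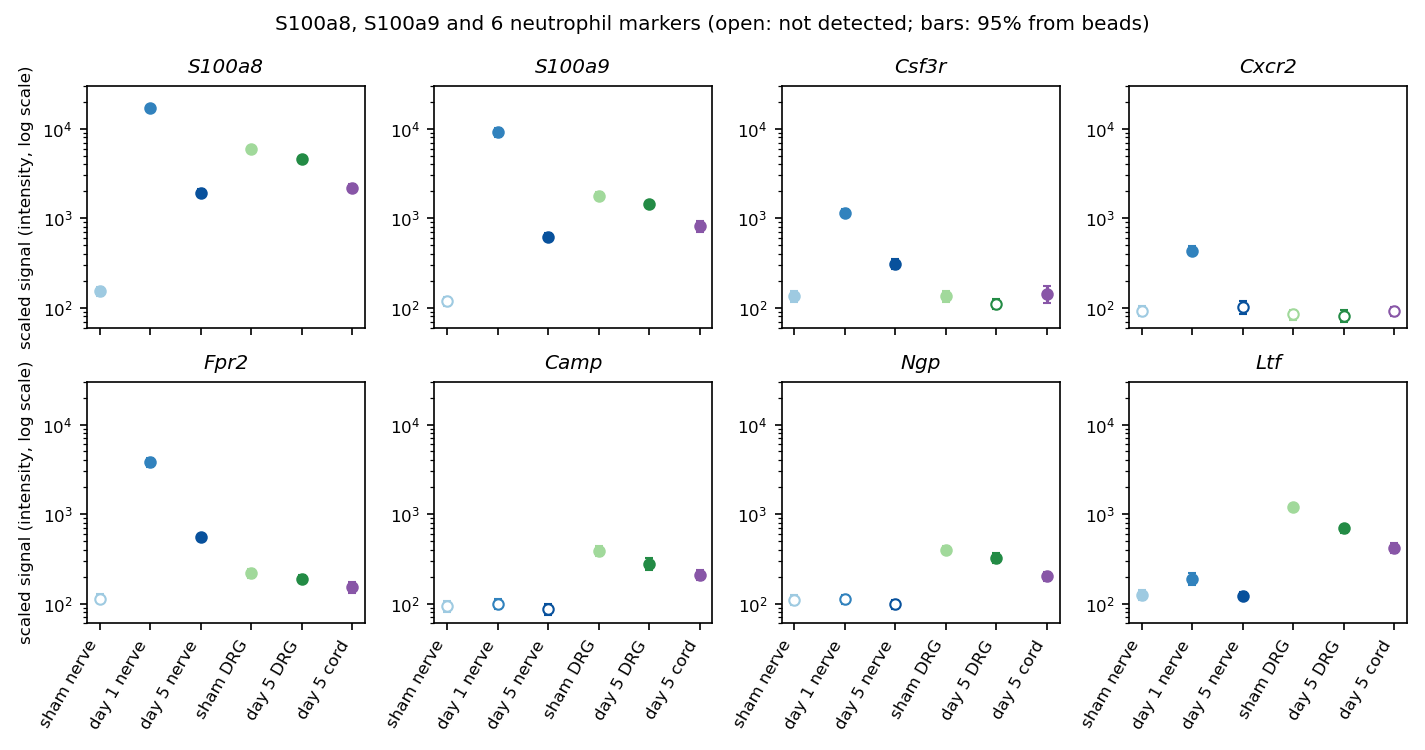
Scaled signal intensity (log axis) of S100a8, S100a9 and 6 neutrophil genes on the 6 arrays, with bars of 95% from beads and open points where the probe was not detected. Csf3r, Cxcr2 and Fpr2 are highest in the day 1 nerve, while Camp, Ngp and Ltf are highest in the sham DRG.

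After injury, the pair did not gain signal in the DRG. S100a8 was 1.30-fold lower in the day 5 DRG than in the sham DRG (1.15 to 1.47) and S100a9 1.23-fold lower (1.08 to 1.40), and of the other neutrophil genes 0 of 15 passed 2-fold in either direction (median log2 difference -0.17). The cord had 2.09-fold less S100a8 than the day 5 DRG (1.83 to 2.38) and 1.75-fold less S100a9 (1.48 to 2.06). The S100a8 value lay at the 2-fold threshold and passed it in 5 of 7 alternative processings.

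S100b, the Schwann cell and astrocyte member, was lower in injured nerve and not in injured-side DRG. Its signal was 780.1 ± 51.7 in the sham nerve, 418 ± 40.7 in the day 1 nerve, 289.7 ± 17.9 in the day 5 nerve, 563 ± 43.1 in the sham DRG, 729 ± 51.7 in the day 5 DRG and 533 ± 52.6 in the cord. The sham nerve and the day 5 DRG were the brightest and lay within bead error of each other (1.07-fold, 0.884 to 1.29), and the day 5 nerve was the dimmest. At day 1 S100b was 1.87-fold lower than in the sham nerve (1.48 to 2.35), just inside the 2-fold threshold, and with neqc it was 2.23-fold lower. At day 5 it was 2.69-fold lower (2.25 to 3.22), the 1 member of 10 past 2-fold in that direction, where 5.09% of genes were. The day 5 DRG exceeded the sham DRG 1.30-fold (1.06 to 1.59).

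Most detected myelin genes were at least 2-fold lower in the day 5 nerve, and markers of the glia that make myelin were mixed. Of 8 detected myelin genes, 2 were at least 2-fold lower at day 1 (Cnp and Pllp, median log2 difference -0.23), and at day 5 5 of 7 were, namely Mag, Egr2, Ncmap, Cnp and Pllp (median -1.93). Mag, a myelin adhesion protein, had signals of 8472, 6803 and 2096 in the sham, day 1 and day 5 nerve. Egr2 had 4496, 6736 and 1566, and so was higher at day 1 and lower at day 5. Of 5 detected peripheral glia genes, 1 was at least 2-fold lower at day 1 (Cdh19). At day 5, 1 was higher (Ngfr) and 1 lower (Dhh). The median log2 difference of these genes was -0.46 at day 1 and -0.94 at day 5. In the sham, day 1 and day 5 nerve, Scn7a had 488, 374 and 245 and Ncam1 had 907, 626 and 473. Both were lower at day 5 without passing 2-fold. Cdh19, the 1 defining gene of that list measured, had 613, 302 and 704. Dhh, the hedgehog ligand of Schwann cells, had 8218, 5994 and 3402. Ngfr, the low-affinity neurotrophin receptor that dedifferentiated Schwann cells carry, had 837, 1160 and 4198. In the DRG pair 0 of 7 myelin genes and 0 of 6 peripheral glia genes passed 2-fold. Whether S100b signal per glial cell or the share of glial RNA was lower cannot be told apart.

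Markers of central glia, which also express S100b, were present on some peripheral arrays. Of 13 such genes, 12 were detected in the day 1 nerve and all 13 in the sham DRG, against 5 in the sham nerve, 5 in the day 5 nerve and 6 in the day 5 DRG. Their summed signal was 12184, 18307 and 10367 in the sham, day 1 and day 5 nerve, 13479 and 7524 in the sham and day 5 DRG, and 87283 in the cord. A large part of the peripheral sums came from Gja1 and Cldn11, which were detected on every array. Gja1 had 6663, 10637 and 7104.5 in the sham, day 1 and day 5 nerve, and Cldn11 had 2156, 3396 and 976. In the sham and day 5 DRG, Gja1 had 3441 and 2140 and Cldn11 had 5887 and 3391. Aqp4, the water channel of astrocytes, had signals of 354 in the day 1 nerve, 398 in the sham DRG, 133 in the day 5 DRG and 4777 in the cord, and was not detected in the sham and day 5 nerve. Olig1, an oligodendrocyte transcription factor, had 901, 409, 967 and 12080.1 in the day 1 nerve, day 5 nerve, sham DRG and cord. It was not detected in the sham nerve and day 5 DRG. S100b was lower in the day 1 nerve than in the sham nerve, where 4 of 12 central glia genes were at least 2-fold higher at day 1, and higher in the day 5 DRG than in the sham DRG, where 4 of 13 were at least 2-fold lower at day 5. Their part in the S100b values was not tested. In the cord itself S100b was 1.37-fold lower than in the day 5 DRG (1.08 to 1.73), where 11 of 13 central glia genes were at least 2-fold higher.

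The genes whose pattern was most like that of S100b were sought among 1959 other genes detected on at least 1 array with a range of at least 4-fold, which is wider than the 2.69-fold range of S100b itself. The highest Pearson correlations of log2 signal over the 6 arrays were those of Mvd (0.98), Hmgcs1 (0.95), Pcyt2 (0.95), Hsd17b7 (0.93) and Fdps (0.93). Mvd, the decarboxylase of the mevalonate pathway, had signals of 942, 396 and 209.6 in the sham, day 1 and day 5 nerve, 743 and 1064 in the sham and day 5 DRG and 525 in the cord. Hmgcs1, which makes the precursor of mevalonate, had 50330, 21961 and 8430 in the 3 nerve arrays, 29487 and 32715 in the DRG and 22140 in the cord. Pcyt2 acts in phosphatidylethanolamine synthesis. The 6 points share 3 tissues, and a correlation over them is a description of likeness only.

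**Figure D4:**
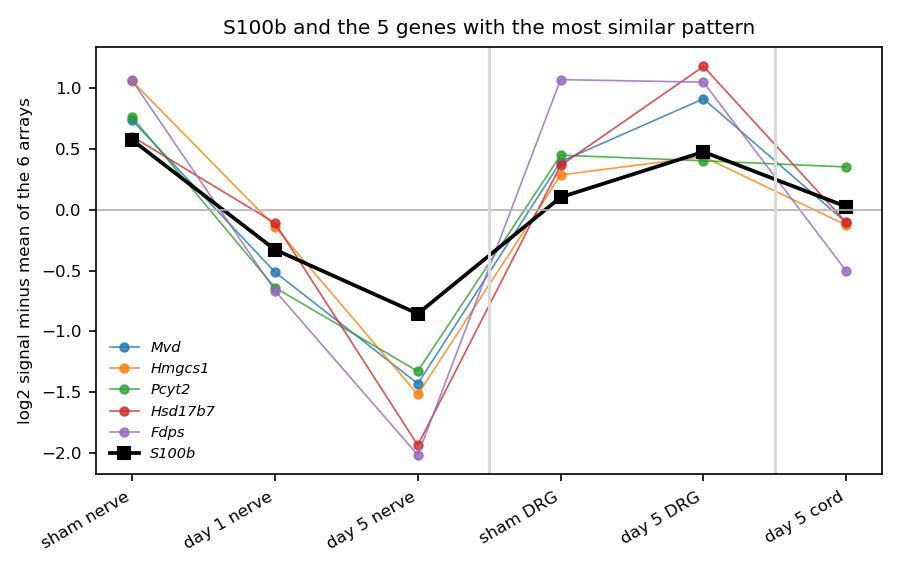
Log2 signal of S100b (black squares) and of the 5 genes most like it, each minus its own mean over the 6 arrays, with grey lines between nerve, DRG and cord. All 6 genes are lowest in the day 5 nerve, where S100b has a signal of 289.7 and Mvd one of 209.6.

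S100a11, a partner of annexin A1 in membrane repair and growth control, had the highest fold of the members in the injured-side DRG. Its signal was 13473 ± 586 in the sham nerve, 25369 ± 1512 in the day 1 nerve, 26374 ± 1548 in the day 5 nerve, 5502 ± 259 in the sham DRG, 17549 ± 755 in the day 5 DRG and 1376 ± 62.4 in the cord. Neighbours in the order of its levels were apart by more than bead error except the day 1 and the day 5 nerve (1.04-fold, 0.882 to 1.22). The day 5 DRG exceeded the sham DRG 3.19-fold (2.82 to 3.61), and this ranged from 3.19-fold to 3.86-fold over 7 alternative processings. In the nerve it was 1.88-fold higher at day 1 (1.63 to 2.18) and 1.96-fold higher at day 5 (1.70 to 2.26), both inside the threshold, which each passed only when signals were not scaled (2.06-fold and 2.07-fold). Reference genes were not level in the nerve either. Their median log2 difference was 0.66 at day 1 and 0.63 at day 5 (0.33 with the mean of all probes), with Actb 3.81-fold higher at day 1, and 0.17 in the DRG, where 0 of 9 passed 2-fold.

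S100a10, the p11 protein that binds annexin A2 and brings ion channels such as Nav1.8 to the cell surface, was the other member past 2-fold in the DRG. Its signals in nerve were 2178 ± 121, 2121 ± 118 and 2466 ± 153 (sham, day 1 and day 5), and those in sham DRG, day 5 DRG and cord were 2667 ± 152, 5438 ± 240 and 607 ± 42.2. The 3 nerve arrays were not apart beyond bead error, and the day 5 DRG stood alone at the top. It was 2.04-fold higher in the day 5 DRG than in the sham DRG (1.77 to 2.35), just outside the threshold, and 1.99-fold with quantile normalization. S100a10 and S100a11 were the 2 of 10 members past 2-fold in the DRG, with 0 lower, where 0.854% of 10191 genes were higher and 0.324% lower (1.18% either way). On that array 5 of 16 detected macrophage markers were past 2-fold (summed signal 14869, against 6879 in the sham DRG), and their part in the 2 values was not tested. Genes known for their rise in axotomised sensory neurons were at least 2-fold higher for 12 of 13. All of these 12 except Jun are also among the paper's top DRG genes, which come from these same arrays. The count is therefore fixed largely by the list and is no independent result.

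Annexins and other intracellular partners of the members were read beside them. Of 18 measured partners and targets, 0 of 14 detected passed 2-fold in the DRG, 1 of 13 in the day 1 nerve (Fgf1, lower) and 2 of 12 in the day 5 nerve (Anxa1, higher, and Fgf1, lower). Anxa2, the partner of S100a10, had signals of 28505 in the sham DRG and 33070 in the day 5 DRG (1.16-fold, 1.03 to 1.31), and of 20714, 35544 and 35045 in the sham, day 1 and day 5 nerve. Anxa1, the partner of S100a11, had 393, 463 and 862 in the 3 nerve arrays, 2.19-fold higher at day 5 (1.89 to 2.55), and was detected in the DRG only at day 5, at 175. Scn10a, the gene of Nav1.8, was detected only in the DRG, at 1721 in the sham and 1352 in the injured side.

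The genes most like S100a11 over the 6 arrays, among 5187 with a range of at least 2-fold, were Irgm2 (Pearson correlation 0.996), Prrc2a (0.99), Gnb2 (0.99), Il10rb (0.98) and Tnfaip1 (0.97). Some ranged far less than S100a11 (19.2-fold), such as Gnb2, from 2175 in the cord to 4510 in the day 5 nerve. Irgm2, an interferon-inducible GTPase, had signals of 588 in the sham DRG and 1118 in the day 5 DRG, and 298 in the cord. Those most like S100a8 were Serpina3n (0.86), Slc2a6 (0.84), Nptx2 (0.82), Sphk1 (0.82) and Coro1a (0.82), none as close as S100a9. Serpina3n, a protease inhibitor of the acute phase response, had signals of 1591, 9193 and 2345 in the sham, day 1 and day 5 nerve. As for S100b, these genes were picked as the highest of many candidates over 6 arrays that share tissues. Their correlations describe likeness only.

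The stromal members S100a4 and S100a6 differed less after injury. S100a4, which binds non-muscle myosin and is carried by fibroblasts and some leukocytes, had signals of 397 ± 23.6 in the sham nerve, 646 ± 40.6 at day 1 and 568 ± 26.0 at day 5, 160 ± 8.47 in the sham DRG and 189 ± 11.1 in the day 5 DRG, and was not detected in the cord (117). It was 1.63-fold higher in the day 1 nerve (1.37 to 1.93) and 1.43-fold higher in the day 5 nerve (1.24 to 1.66) than in the sham nerve. All nerve arrays exceeded both DRG arrays. Of 15 fibroblast genes, 9 were at least 2-fold lower at day 1 and 5 at day 5 (median log2 difference -1.23 and -0.58). In the sham, day 1 and day 5 nerve, Col1a1 had signals of 7673, 3267 and 14199 and Col3a1 had 4751, 1898 and 6403. The other defining fibroblast genes were Dcn with 44721, 31410 and 24539, Lum with 13996, 5030 and 14458, and Pdgfra with 3958, 2227 and 2654. The part of the fibroblast genes in the S100a4 values was not tested. S100a6, or calcyclin, had signals from 3700 to 4626 on the 5 peripheral arrays, with no neighbours in that order apart beyond bead error, although the day 5 nerve was 1.25-fold lower than the day 1 nerve (1.01 to 1.55), and 625 ± 54.1 in the cord.

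S100a13, which assists the release of FGF1 and interleukin 1 alpha, and S100a16, a widely expressed member, did not pass 2-fold in any of the 6 comparisons except S100a13 in the cord. S100a13 had signals of 1183, 1253 and 1241 in the sham, day 1 and day 5 nerve, not apart beyond bead error, 2059 and 2393 in the sham and day 5 DRG (1.16-fold, 1.01 to 1.33) and 786 in the cord. Its cargo Fgf1 differed more, with 5806, 2559 and 1258 in the 3 nerve arrays, 2.27-fold lower at day 1 (1.85 to 2.78) and 4.62-fold lower at day 5 (3.88 to 5.50). Il1a, the gene of the other cargo, went the other way. It was not detected in the sham nerve and had signals of 205 and 160 in the day 1 and day 5 nerve. S100a16 had signals of 226, 240.4 and 317 in the 3 nerve arrays, 1.41-fold higher at day 5 (1.14 to 1.73), and of 166, 153 and 186 in sham DRG, day 5 DRG and cord. S100a1, known from striated muscle and also made in neurons and glia, had signals from 1192 to 1509 on the peripheral arrays, with no neighbours in that order apart beyond bead error. The ends were apart, as the 95% bead intervals of the day 5 nerve (1354 to 1663) and the day 5 DRG (1073 to 1310) did not overlap. On the same nerve arrays 6 of 10 skeletal muscle genes were at least 2-fold lower in the day 1 nerve.

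Among tissues, the cord had the lowest signal of 5 members (S100a4, S100a6, S100a10, S100a11 and S100a13) and the highest of S100a1. S100a1 stood at 3256 ± 218 in the cord, 2.73-fold above the day 5 DRG (2.32 to 3.22), the 1 member at least 2-fold higher there, where 6.08% of 10388 genes were. Lower in the cord by at least 2-fold were 5 members, where 7.51% of genes were: S100a11 by 12.8-fold (11.3 to 14.4), S100a10 by 8.96-fold (lower 95% limit 7.63), S100a6 by 6.30-fold (5.05 to 7.86), S100a13 by 3.05-fold (2.59 to 3.57), and S100a8 as given above. S100a4, not detected there, was at least 1.59-fold lower. With neqc it was at least 2.84-fold lower and past the threshold, while S100a8, at 1.98-fold, was not. The partners Anxa2, Anxa5, Anxa6, Anxa11, Ahnak, Myh9 and Scn10a were also at least 2-fold lower in the cord, 7 of 15 detected, with Anxa2 at 33070 in the day 5 DRG and 3297 in the cord. Cord and DRG differ in cell makeup, with peripheral glia genes lower in the cord for 4 of 7.

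Between the sham tissues, S100a4 was 2.48-fold lower in the DRG than in the nerve (2.12 to 2.90; 4.32-fold with neqc) and S100a11 2.45-fold lower (2.16 to 2.78), the 2 members past 2-fold in that direction, where 11% of genes were. All 15 fibroblast genes were lower in the sham DRG by at least 2-fold (median log2 difference -2.67), and their part in the S100a4 and S100a11 values was not tested. S100a13 was 1.74-fold higher in the DRG (1.47 to 2.06). Over the 10 members the median log2 difference was -0.03, and over all genes it was -0.05.

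Receptors through which released S100 proteins act were mostly below 2-fold. Of 6 measured, Cd36 was not detected on any array, and the other 5 gave 0 past 2-fold in the day 1 nerve and in the DRG pair. Mcam, a cell adhesion receptor that binds S100A8 and S100A9, had signals of 889, 1120 and 2293 in the sham, day 1 and day 5 nerve, 2.58-fold higher at day 5 (2.22 to 2.99). Tlr4, the toll-like receptor for S100A8, had 282, 547 and 499 in the same arrays, which is 1.93-fold at day 1 (1.69 to 2.21). Ager, the gene of RAGE, was not detected in the sham nerve, DRG or cord, and had signals of 133 and 143 in the day 1 and day 5 nerve, near the floor. The rest of the family stayed dim. Of 5 other S100 genes measured, S100a7a (176 in the sham nerve and 120 in the day 1 nerve) and S100a14 (131 in the sham nerve) were the ones detected, and none passed 2-fold. Of 4 measured genes of S100-fused proteins, 0 were detected.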

How the data were processed

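The members and the gene lists were chosen with earlier results of these data known. The study's methods and the submitters' processing notes name Agilent Feature Extraction 10.5 for the raw data. The authors deposited, for each of 25697 probes, an unscaled mean intensity, its bead standard error, the number of beads (the other deposited columns) and a detection p-value against negative controls. They also deposited a second table of intensities whose quantiles are equal on every array, hence quantile normalized, whereas the methods describe scaling to the median. No column was left unmapped to a sample (0). Gene names came from the platform annotation: 23978 probes had 1 symbol, 0 several, and 1719 are not named here.

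Deposited intensities were multiplied to a common median, undetected values were raised to the floor, and 1 probe a gene was kept, the one with the highest mean. Raw signals keep their background, which makes folds smaller for dim genes. Intervals of 95% were taken from bead standard errors on the log scale. A member was counted at a fold of 2 with detection in the brighter array. The 6 comparisons were day 1 and day 5 nerve each against sham nerve, day 5 against day 1 nerve, day 5 against sham DRG, sham DRG against sham nerve, and cord against day 5 DRG. The title of the day 5 nerve array ends in the code used for day 1, but its source name gives day 5, which was used. Named genes were the members, partners and receptors past 2-fold within a tissue, and the 5 genes most like S100a8, S100b and S100a11. Some but not all of the defining cell markers were also named. Other genes of the lists (Anxa2, Tlr4, Ager, Fpr2, Retnlg, Lcn2, Mmp9, Slc4a1, Mag, Dhh, Ngfr, Actb and those named by count) were picked after their values were seen. The same holds for Gja1, Cldn11, Egr2, Il1a, Prtn3, Scn7a and Ncam1. The fold steps were tested on simulated data. The 7 alternatives were no scaling, quantile normalization, neqc, the deposited processed table, a detection p under 0.01, the mean of all probes, and no floor. Python 3.11.15, pandas 2.3.3, numpy 2.4.6, R 4.3.3 and limma 3.58.1 were used.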

Additional observations from a re-analysis of the deposited data

Results flagged for a closer look

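For 3 members the difference from sham at day 5 ran in opposite directions in nerve and DRG. The log2 difference of S100a8 was 3.65 in the nerve and -0.38 in the DRG, that of S100a9 was 2.31 (a lower bound) and -0.30, and that of S100b was -1.43 and 0.37. With 1 array a group, the difference between the tissues was not tested, and the sham DRG array also carried the central glia genes described above.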

How the results depend on the processing

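Of 84 member counts recomputed under the 7 alternatives, 81 stayed within 1.5 times the value reported. The count of members at least 2-fold lower in the day 1 nerve went from 0 to 1 (S100b) with neqc and to 1 with the deposited processed table, and the count at least 2-fold higher in the DRG went from 2 to 1 (S100a11) with quantile normalization. Of 420 recomputed member folds, 405 moved by no more than the 95% bead interval, 12 moved more with neqc and 3 with the deposited processed table, and none of the members past 2-fold changed direction. With neqc, the S100a9 values over the undetected sham nerve signal were at least 208-fold in the day 1 nerve and at least 12.9-fold in the day 5 nerve. These are lower bounds too, because undetected signals were raised to a floor in that setting as well. Of 657 recomputed medians of gene lists, 70 moved, 39 of them with neqc and 15 with the mean of all probes. Without scaling, the median log2 difference of all detected genes was 0.12 in the day 1 nerve, where it was -0.01 with scaling, and -0.17 in the cord, where it was -0.03. The share of higher among genes past 2-fold at day 1 was 64.6% as reported, 76.1% without scaling and 50.8% with neqc, and with neqc 924 genes were higher and 895 lower (669 and 367 as reported). In the DRG neqc gave 212 and 119 (87 and 33 as reported). No paired analysis was possible because each group has 1 array and the labels give no replicate numbers, and for the same reason no replicate could be left out. Signals near the floor, those of S100a8 and S100a9 in the sham nerve, S100a4 in the cord and S100a16 and Ager throughout, limit their folds. The bead number limits precision on an array, and variation between animals was not measured.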
